A study of Mus musculus with 41 samples.

Results

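Matrix remodelling and fibrosis genes were described by 8 genes that are often read in lung and liver fibrosis: Tgfb1, Ctgf, Fn1, Spp1, Tnc, Eln, Lox and Acta2. Every spot of the mRNA arrays whose gene name equals one of them was taken, which gave 52 of 43379 gene spots, 16 of 41174 probes and 8 of 27962 gene names. Current RefSeq symbols equal the array's names for all of them but Ctgf, which is now Ccn2. Where a gene had several probes, the one with the highest mean intensity over the 28 mRNA arrays stood for it.

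The mice were female C57BL/6 by the labels (C57BL/6BomTac in the study's methods) that had been time-mated but had not conceived, with an age given in the labels as equivalent to an early day of gestation. Exposed mice inhaled surface-coated rutile nanoTiO2 (UV-Titan L181) in whole-body chambers at 40 mg/m3 by the label, for 1 h per day on 11 days. Control mice received filtered air, and tissue was taken 5 days after the last exposure. Lung arrays came from 7 exposed and 6 control mice, liver arrays from 7 exposed and 8 control mice, with 1 mouse per array. Each array carried the RNA of a mouse in Cy5 and a common mouse reference RNA, pooled from cell lines, in Cy3, without a dye swap, so that every level below is a log2 ratio to the reference. On every slide exposed mice took the first array positions and controls the last ones, and the effects of place on the slide and of exposure cannot be told apart. The 4 lung slides differed in makeup, and the fourth held the exposed mice 20 and 23 with no control.

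Tgfb1 encodes a cytokine that is held latent in the matrix and, once released, drives fibroblasts to make matrix and to take on contractile filaments. Ctgf is among its target genes. Fibronectin (Fn1) and elastin (Eln) are structural matrix proteins, osteopontin (Spp1) and tenascin C (Tnc) modulate cell adhesion, lysyl oxidase (Lox) crosslinks collagen and elastin, and smooth muscle actin (Acta2) marks smooth muscle and myofibroblasts.

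The probes are 60-mers, and the sequences below are those of the 3 Fn1 probes, of the probe of the ligand Tgfb1 and of 1 Acta2 probe. They are given 5′ to 3′ in lower case as the array files list them, with the files' mouse coordinates, whose build is not given in the sources used here. The probes A_51_P100856 and A_52_P299974 of Fn1 and A_51_P450957 of Acta2 cover 2238, 759 and 3255 bases of the genome with 60 bases of sequence, so that they cross at least 1 intron. The other 2 probes lie in an uninterrupted stretch.
Fn1, A_51_P100856, chr1:71832689-71834926, minus strand: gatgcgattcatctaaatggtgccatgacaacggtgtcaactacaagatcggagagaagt
Fn1, A_52_P11817, chr1:71839394-71839453, minus strand: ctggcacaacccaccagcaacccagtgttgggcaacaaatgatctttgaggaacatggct
Fn1, A_52_P299974, chr1:71869155-71869913, minus strand: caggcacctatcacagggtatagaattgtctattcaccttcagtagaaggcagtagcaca
Tgfb1, A_51_P390715, chr7:22478890-22478949, plus strand: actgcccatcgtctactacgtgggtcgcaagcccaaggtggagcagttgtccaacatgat
Acta2, A_51_P450957, chr19:33949738-33952992, minus strand: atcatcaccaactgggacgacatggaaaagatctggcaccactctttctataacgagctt

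Signal differed between slides. The share of spots whose Cy5 signal stood well above background ran from 55.1% to 70.5% over the arrays. In liver it was 55.1% to 59.5% on slides 1 and 3 and 63.2% to 70.5% on slides 2 and 4. The median Cy5 signal in lung was 91 to 103 on slides 1 and 2 and 116.5 to 141 on slides 3 and 4. Log2 ratios correlated at 0.945 to 0.986 between lung arrays and at 0.959 to 0.988 between liver arrays. The tissues carried their own markers. In control mice all 7 alveolar and airway epithelial markers tested were higher in lung (30% of all probes). All 5 hepatocyte markers tested were higher in liver (29.6% of all probes). Of 41105 probes tested in lung 83 passed an adjusted p of 0.05 (0.202%), of which 74 were higher (0.18%) and 9 lower (0.0219%) after exposure. In liver 0 of 41076 probes passed (0%) by limma, and 1034 had an unadjusted p below 0.05 (2.52%).

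Among the 8 genes, Spp1 alone rose in the lungs of exposed mice (1 of 8 genes and 1 of 16 probes, against 0.202% of all probes in either direction), and 0 fell. Its log2 difference was 0.66 ± 0.12 (SE), a 1.58-fold rise with a 95% interval from 1.31-fold to 1.90-fold. For the other 7 genes the lung differences ran from −0.03 to 0.21, and none passed. Spp1 and Fn1 had an unadjusted p below 0.05 (7.13% of all probes did), and for no gene were the exposed and control lungs wholly apart (0.528% of all probes). No gene of the set passed in liver or had groups that did not overlap there (0.0828% of all probes, 0.0243% with exposed higher). Over the 8 genes the median difference was 0.0183 in lung and −0.0405 in liver, beside 0.0015 and −0.0039 for the median of all probes.

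**Figure D1:**
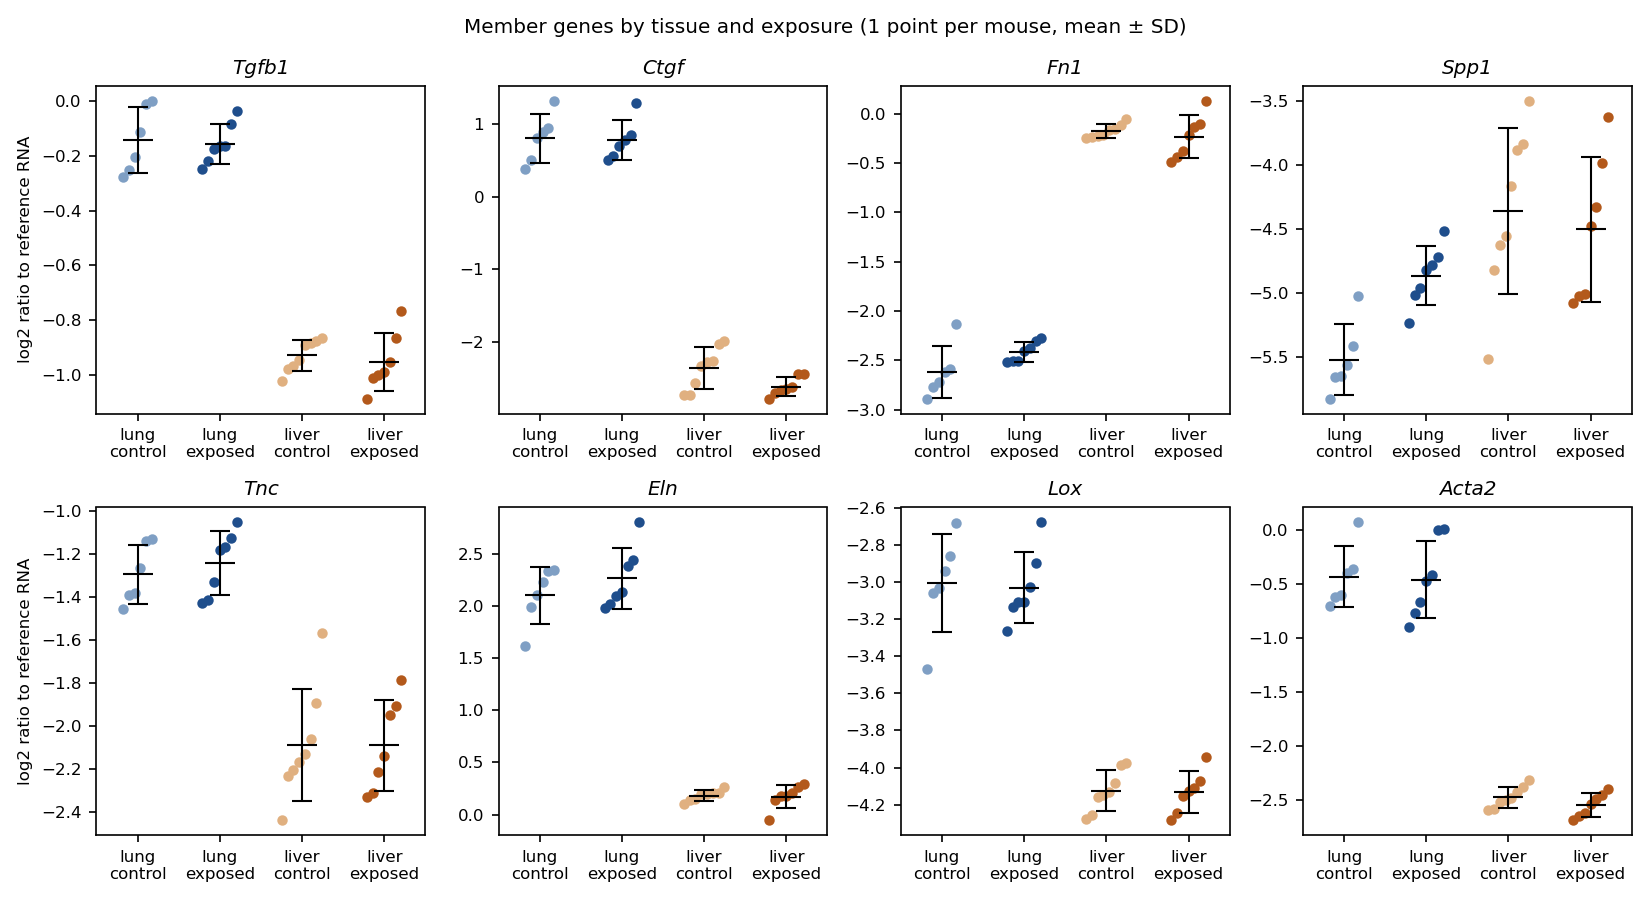
Log2 ratio to the reference RNA (y axis) of the probe standing for each gene in the 4 groups (x axis). Points are mice, bars are the mean ± SD. Lung and liver do not overlap for 7 genes and overlap for Spp1, and between exposed and control lung the points of Spp1 overlap by 1 exposed and 1 control mouse.

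The signalling genes Tgfb1 and Ctgf did not pass in either tissue. Tgfb1 in lung lay between −0.28 and 0.00 in controls (median −0.16) and between −0.25 and −0.04 in exposed mice (median −0.16), so that the exposed range fell inside that of the controls. The difference was −0.01 ± 0.05 (SE, 95% interval −0.13 to 0.10, adjusted p = 0.973). Tgfb1 had 10 spots per array, whose SD had a median of 0.07 beside an SD between mice of 0.12 in control and 0.07 in exposed lung. In liver it lay between −1.02 and −0.87 in controls and between −1.09 and −0.77 in exposed mice, and the difference was −0.02 ± 0.05 (SE, adjusted p = 1.00).

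Ctgf had 1 spot per array, and the spot of exposed mouse 1 in lung was marked by the scanner and left out, so that 6 exposed mice remained. Control lungs ran from 0.38 to 1.33 with a median of 0.85, exposed lungs from 0.51 to 1.30 with a median of 0.74. The groups overlapped over nearly the whole range, and the difference was −0.03 ± 0.16 (SE, 95% interval −0.36 to 0.31). In liver control values ran from −2.73 to −1.99 with a median of −2.30, and exposed values from −2.78 to −2.44 with a median of −2.65. All exposed livers lay below the control mean, while none lay outside the range of the controls except mouse 9 at −2.78. The liver difference of −0.25 ± 0.11 (SE) had an unadjusted p of 0.033 by limma, an exact 2-sided permutation p of 0.055 and an adjusted p of 1.00. It was the 1 gene of the set with an unadjusted p below 0.05 in liver (2.52% of all probes).

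Spp1 encodes osteopontin, a secreted phosphoprotein that binds integrins and CD44 and is made by macrophages, epithelium and bone cells. Control lungs had log2 ratios of −5.83 in mouse 24, −5.66 in mouse 27, −5.65 in mouse 34, −5.56 in mouse 26, −5.42 in mouse 29 and −5.03 in mouse 32. Exposed lungs had −5.24 in mouse 20, −5.02 in mouse 1, −4.96 in mouse 12, −4.82 in mouse 19, −4.78 in mouse 7, −4.72 in mouse 23 and −4.52 in mouse 13. Of the 7 exposed mice 6 lay above every control, and mouse 20 lay below control mouse 32 alone. The group means were −5.53 ± 0.28 (SD, n = 6) and −4.86 ± 0.23 (SD, n = 7), which is 46.1-fold and 29.1-fold below the reference RNA. The difference had an unadjusted p of 9.58e-05, an adjusted p of 0.048 by limma over 41105 probes and an exact 2-sided permutation p of 0.0023 over 1716 splits.

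The call of Spp1 sat at the threshold, while the direction of its difference held without any single array. With 1 array left out at a time, the difference stayed between 0.60 and 0.76 and the adjusted p ran from 0.0054 to 0.123. It stayed below 0.05 without control mouse 32 or exposed mouse 20, and was above 0.05 without any one of the other 11 (controls 24, 26, 27, 29 and 34, exposed 1, 7, 12, 13, 19 and 23). Within the 3 lung slides that held both groups the difference was 0.80, 0.58 and 0.67, and with slide as a fixed block it was 0.69 (adjusted p = 0.049). The reference channel alone differed by 0.04 ± 0.06 (SE) between exposed and control arrays at this probe, and the Cy5 channel alone by 0.70 (adjusted p = 0.014). The adjusted p was above 0.05 under 4 of 11 other ways of processing, at differences of 0.66 to 0.76.

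**Figure D2:**
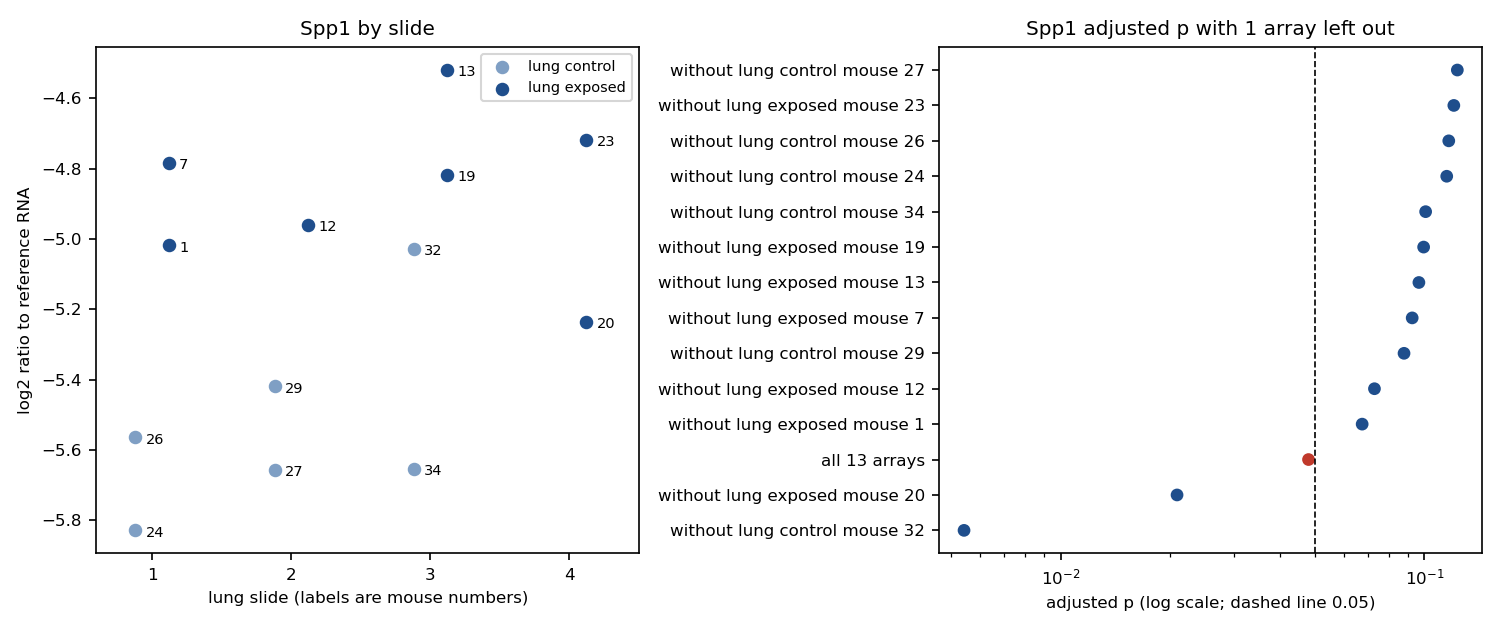
Left, Spp1 log2 ratio (y axis) of each lung array by slide (x axis), labelled with the mouse number; right, adjusted p of the lung difference (x axis, log scale) with 1 array left out at a time, the red point being all 13 arrays and the dashed line 0.05. Exposed mice lie above the controls of their own slide on slides 1 to 3, and 11 of the 13 left-out fits lie to the right of the line.

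The reference RNA was very bright at this probe (log2 Cy3 of 17.02 to 17.68 on lung arrays against 11.40 to 12.78 in Cy5). The scanner marked 47.1% of its spots over the 28 arrays. This left 3 to 9 of the 10 spots in use on each lung array. On the liver arrays 1 to 7 were used, with 1 in exposed mouse 12. The SD among the spots used on an array had a median of 0.04, and among all 10 spots, marked ones included and uncorrected, a median of 0.05. The arrays were scanned with an extended signal range, and the scanner marked 0 of the 280 Spp1 spots as saturated in either channel. With the spots that were marked for their local background alone kept, the difference was 0.67 (adjusted p = 0.035).

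Some markers of macrophages rose in exposed lungs. Of 9 macrophage markers tested, 3 passed as higher (0.18% of all probes did) and 6 did not pass. Differences were above 0 for 7 of the 9 and below 0 for 2 (lowest −0.0658). Ctsk, a lysosomal protease, rose by 0.96 ± 0.11 (SE). Marco, a scavenger receptor of alveolar macrophages, rose by 0.57 ± 0.09, and Msr1, another scavenger receptor, by 0.52 ± 0.09. The mean log2 ratio of the 9 ran from 1.37 to 1.89 in control and from 1.61 to 1.98 in exposed lungs, and 0 of the 9 were below background on most lung arrays. None of 9 neutrophil, 8 fibroblast, 6 endothelial, 8 cardiac muscle, 3 mesothelial and 5 hepatocyte markers passed by limma. Of the neutrophil markers 7 had differences below 0 and 2 above 0 (median −0.0871, from −0.88 to 0.574). Of these 9 markers 2 were below background on most lung arrays. Differences were below 0 for 4 of the 6 endothelial markers, and above 0 for 7 of the 8 fibroblast and all 3 mesothelial markers. An unadjusted p below 0.05 was seen for 1 fibroblast and 2 hepatocyte markers (7.13% of all probes). All 8 cardiac muscle markers had differences above 0 (median 0.353). All 5 hepatocyte markers did too (median 0.383), their mean ranging from 0.26 to 0.77 in control and from 0.16 to 1.42 in exposed lungs, with 2 of the 5 below background on most lung arrays. Of 7 epithelial markers 1 rose, the ciliated cell factor Foxj1, by 0.29 ± 0.05 (SE), while 5 of the 7 had differences below 0 (median −0.102) and 3 had an unadjusted p below 0.05. These 3 were Foxj1, the alveolar type I cell gene Pdpn at 0.20 and the surfactant protein gene Sftpc at −0.20, named after their values were seen. The call of Foxj1 was kept without exposed mouse 1, 19 or 20 and lost in the 10 other fits with an array left out, and its difference was −0.32 with the background model fitted on all spots. The calls of Ctsk, Marco, Msr1 and Foxj1 were kept under 9, 7, 7 and 4 of 11 other ways of processing. Foxj1 did not pass with the authors' table (0.23, adjusted p = 0.320 by limma). The call of Msr1 was lost without control mouse 24 or 32 or exposed mouse 23 (adjusted p up to 0.0625). The part of these cells in the Spp1 result was not tested. In whole tissue a change in the number of cells of a type and a change in RNA per cell cannot be told apart.

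In liver Spp1 varied far more between mice than any other gene of the set. Controls ran from −5.52 in mouse 24 to −3.50 in mouse 27 with a median of −4.36, and exposed livers from −5.08 in mouse 19 to −3.62 in mouse 13 with a median of −4.48. The SD was 0.65 in control and 0.57 in exposed livers, beside 0.05 to 0.29 for the other 7 genes. The groups overlapped and the difference was −0.14 ± 0.28 (SE, 95% interval −0.73 to 0.46). Within the 4 liver slides the difference was 0.75, −1.08, −0.33 and 0.19. The lung difference minus the liver difference was 0.80 ± 0.34 (SE), with an unadjusted p of 0.027 and an adjusted p of 1.00 by limma, where 0.141% of all probes passed, 0.127% with a higher and 0.0146% with a lower difference in lung.

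Fn1 was measured by 3 probes, printed above. At A_51_P100856 control lungs ran from −2.89 in mouse 24 to −2.13 in mouse 34 with a median of −2.66, and exposed lungs from −2.52 to −2.27 with a median of −2.41. All 7 exposed mice lay above the control mean but below control mouse 34. The difference was 0.21 ± 0.10 (SE), with an unadjusted p of 0.048 and an adjusted p of 0.700 by limma and an exact permutation p of 0.079. With 1 array left out at a time it ran from 0.15 to 0.30, and the adjusted p by limma from 0.085 to 0.883. The highest difference was that without control mouse 34 (0.30, adjusted p = 0.085). Within slides the Fn1 difference was 0.49, 0.13 and 0.04.

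The 3 probes of Fn1 did not move together. A_52_P11817 followed A_51_P100856 over 12 lung arrays (Pearson r = 0.904) and differed by 0.17 ± 0.09 (SE, adjusted p = 0.713) between the groups, with exposed mouse 19 left out because its spot was marked. A_52_P299974, which lies closer to the 5′ end of the gene in the files' coordinates, did not follow it over 13 lung arrays (r = −0.133) and differed by 0.03 ± 0.08 (SE). Its lung signal was the lowest of the 3, with a log2 Cy5 of 6.41 to 6.93. The signal was 9.77 to 11.41 at A_51_P100856 and 8.24 to 9.84 at A_52_P11817. The part of low signal or of probe position in the lack of correlation was not tested. In liver the same 2 correlations were 0.867 over 15 arrays and 0.513 over 14. The points of these correlations share the reference RNA and the array, and they are given as a description. The liver differences of the 3 probes were −0.06, 0.04 and 0.01, and none passed.

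**Figure D3:**
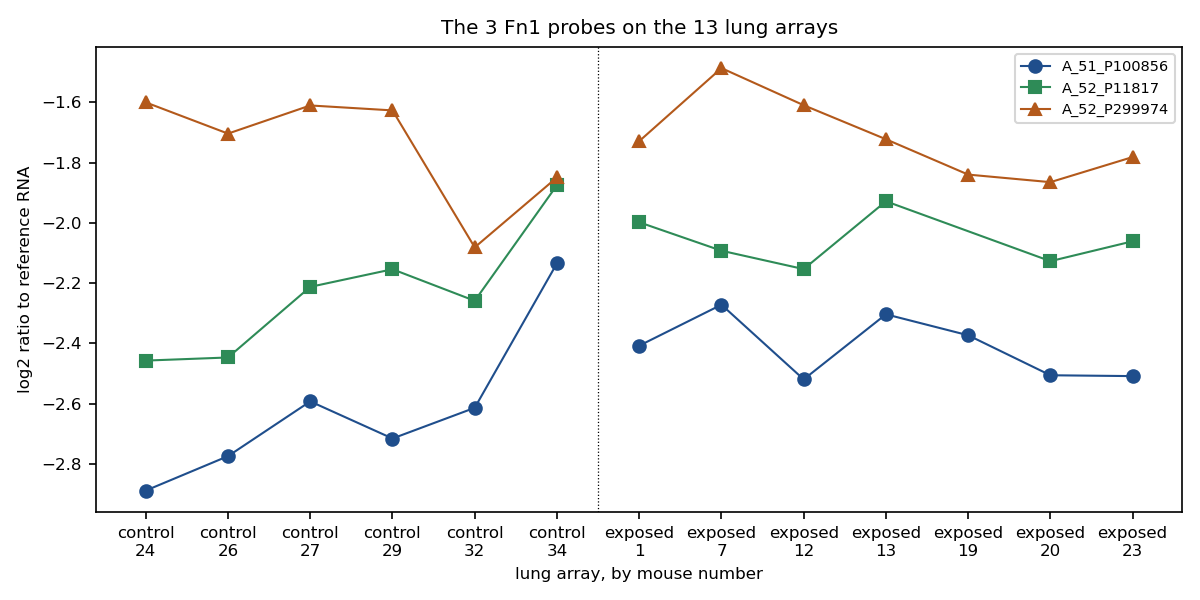
Log2 ratio (y axis) of the 3 Fn1 probes on the 13 lung arrays (x axis, controls left of the dotted line, exposed mice right of it). The lower lines rise at control mouse 34 together, whereas A_52_P299974 is lowest at control mouse 32.

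Tnc, an adhesion-modulating glycoprotein, was readable by 1 of its 3 probes. At A_51_P291438 control lungs ran from −1.45 to −1.13 with a median of −1.32 and exposed lungs from −1.43 to −1.05 with a median of −1.18. The ranges nearly coincided and the difference was 0.05 ± 0.07 (SE, 95% interval −0.11 to 0.21). The probes A_51_P324992 and A_52_P355169 were not well above background in Cy5 on all but 1 of the 28 arrays each, and no fold is given for them. In liver the difference at A_51_P291438 was −0.00 ± 0.11 (SE).

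Eln, the core protein of elastic fibres, ran from 1.62 in mouse 34 to 2.34 in control lungs (median 2.16) and from 1.98 to 2.80 in exposed lungs (median 2.13), with mouse 1 highest. The difference was 0.16 ± 0.14 (SE, 95% interval −0.14 to 0.46), and it was 0.0652 without control mouse 34 and 0.0722 without exposed mouse 1. Its reference signal was low (log2 Cy3 of 6.33 to 7.36), and the lung difference was −0.32 with the background model fitted on all spots and −0.10 with the scanner's processed signals. In liver it was −0.01 ± 0.05 (SE).

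Lox, which oxidizes lysines of collagen and elastin, ran from −3.47 in mouse 34 to −2.68 in control lungs (median −2.99) and from −3.26 to −2.68 in exposed lungs (median −3.11). All exposed values but that of mouse 7, which equalled the highest control to 2 decimals, lay inside the range of the controls, and the difference was −0.02 ± 0.11 (SE, 95% interval −0.26 to 0.22). In liver all 15 values lay between −4.28 and −3.94 and the difference was −0.01 ± 0.06 (SE).

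Acta2 was covered by 5 probes, of which A_52_P420504 stood for the gene with 10 spots per array. Control lungs ran from −0.70 to 0.07 with mouse 24 highest (median −0.50), and exposed lungs from −0.89 to 0.01 with mice 13 and 19 highest (median −0.48). The exposed mice formed no group of their own, and the difference was −0.03 ± 0.16 (SE, 95% interval −0.36 to 0.31). The spread between mice (SD 0.28 in control and 0.36 in exposed lungs) was several times the spread among the spots of an array (median SD 0.06). The probes A_51_P450957, A_52_P210078 and A_52_P239556 gave lung differences of 0.08, 0.06 and 0.14, none of which passed, and they followed A_52_P420504 over the 13 lung arrays with r of 0.649, 0.959 and 0.897. The fifth, A_52_P644232, was well above background in Cy5 on 3 exposed lung arrays and on no other array. Cardiac muscle markers also varied over the lungs, their mean ranging from 1.18 to 3.32 in control and from 1.87 to 3.18 in exposed mice, and their part in the spread of Acta2 was not tested. The printed probe A_51_P450957 lies in actin coding sequence, and reading of other actins by it was not tested. In liver the difference of Acta2 was −0.07 ± 0.05 (SE, adjusted p = 1.00).

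**Figure D4:**
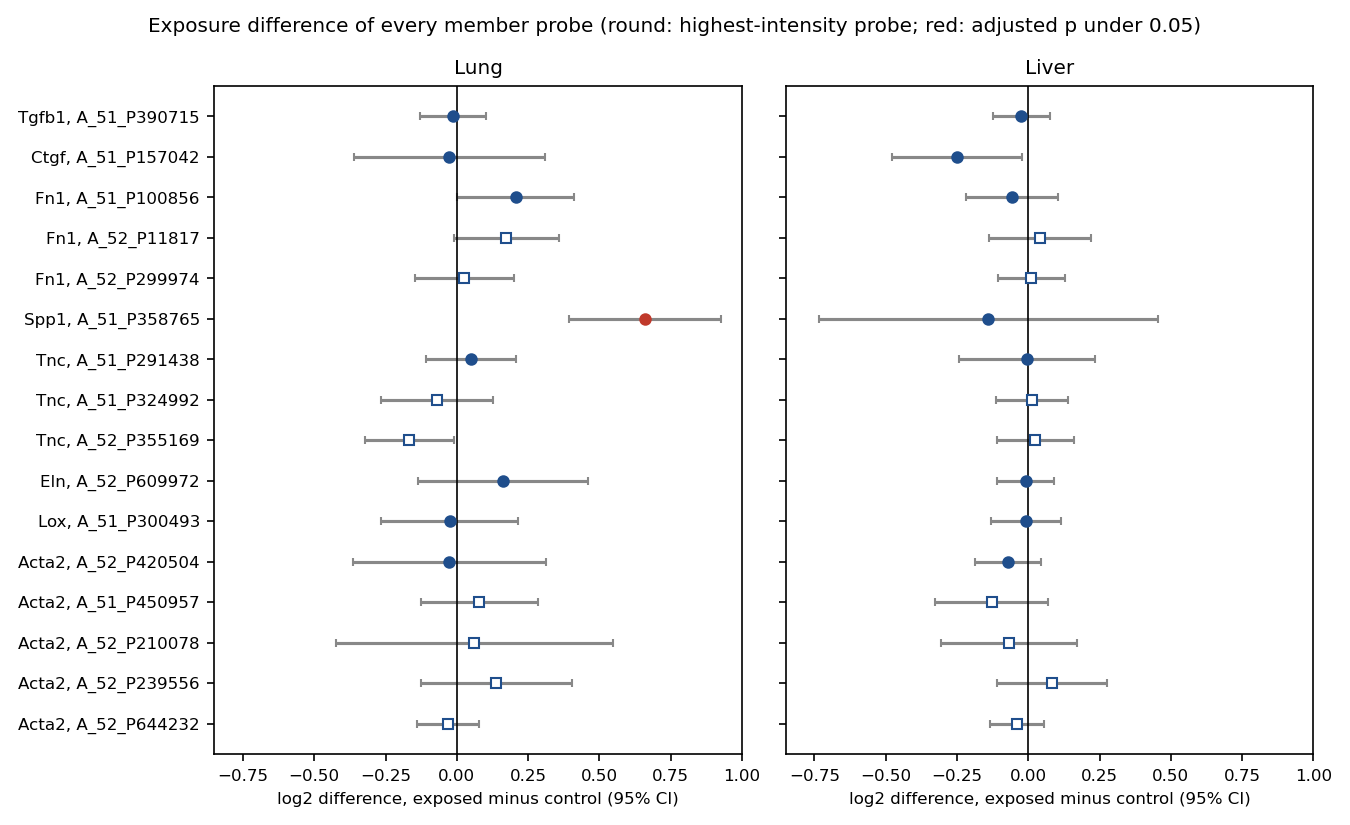
Log2 difference of exposed minus control (x axis) for the 16 probes (y axis) in lung and liver, with 95% intervals; round points stand for the gene, open squares are its other probes and red marks an adjusted p below 0.05. The lung interval of Spp1, from 0.39 to 0.93, lies apart from 0, while in liver its interval is the widest.

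Without exposure all 8 genes differed between lung and liver, where 59.6% of all probes did. Higher in lung were 6 of the 8 (30% of all probes) and lower 2 (29.6%). Tissue and array run cannot be told apart here, since lung and liver arrays were run and scanned separately. Ctgf was 9.03-fold higher in lung (3.17 ± 0.14 SE), the highest of the set, followed by Acta2 at 4.13-fold (2.04 ± 0.12), Eln at 3.78-fold (1.92 ± 0.10), Lox at 2.17-fold (1.12 ± 0.09), Tnc at 1.73-fold (0.79 ± 0.10) and Tgfb1 at 1.73-fold (0.79 ± 0.05). Fn1, which hepatocytes secrete into plasma, was 5.45-fold lower in lung than in liver (−2.45 ± 0.09), and its other probes were 2.75-fold and 4.03-fold lower. Spp1 was 2.24-fold lower in lung (−1.16 ± 0.24). With the spots marked for local background alone kept, its difference was −0.90. The adjusted p values by limma ran from 3.02e-20 for Fn1 to 1.25e-04 for Spp1. With the background model fitted on all spots Tnc (0.39, adjusted p = 0.250) and Lox (0.38, adjusted p = 0.480) did not pass. The sizes depended on the processing in both directions. Over 9 other ways of processing the difference ran from 0.35 to 1.65 for Tnc, from 0.38 to 1.93 for Lox and from 1.76 to 2.59 for Eln. All 3 were highest with the scanner's processed signals, where Eln also lay above Acta2. The part of the normexp offset in these sizes was not tested. Over the 4 groups the order was therefore liver above lung for Fn1 and Spp1 and lung above liver for the other 6, and within a tissue the means of exposed and control mice were not told apart by the test except for Spp1 in lung.

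The readable probes of a gene gave the same direction between the tissues but not the same size. Acta2 was 2.04 higher in lung at the probe standing for it, and 1.54, 1.91 and 0.38 at the 3 others that were readable in lung. At the last of these, A_52_P239556, 4 of 8 control livers and all 6 control lungs were well above background, and at A_52_P210078, with 1.91, only 1 of 8 control livers was.

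The wider pathway was read from 8 lists of matrix and signalling genes with 119 genes in all, of which 116 were tested in lung. Apart from the 8 genes, 0 of 108 passed in lung and 0 of 108 in liver by limma. An unadjusted p below 0.05 was seen for 12 in lung (7.13% of all probes) and 3 in liver (2.52% of all probes). The median lung difference of the 108 was 0.03, and 66 had a difference above 0 (51.0% of all probes did). Their median liver difference was −0.04.

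Of 19 collagens tested none passed. Their lung differences had a median of 0.08 and 17 of the 19 were above 0, from Col18a1 of the vascular basement membrane at 0.22 ± 0.07 (SE, adjusted p = 0.455) and the fibrillar Col3a1 at 0.17 ± 0.10 down to Col4a5 at −0.03 and Col8a1 at −0.03. The mean log2 ratio of the list ran from −0.10 to 0.12 in control and from 0.04 to 0.18 in exposed lungs, and the groups overlapped. Of 15 elastic fibre genes none passed, and the median was 0.12. The elastic fibre protein Fbln1 stood at 0.49 ± 0.19 (SE, adjusted p = 0.646) and Ltbp2, a fibrillin-binding protein, at 0.42 ± 0.10 (SE, adjusted p = 0.143), with Fbln5 at −0.10 and Ltbp3 at −0.04 lowest.

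Of 19 adhesive and matricellular genes Spp1 alone passed, and the median was 0.04. Of 11 small proteoglycan and hyaluronan genes none passed (median 0.08). The proteoglycan Bgn had 0.34 ± 0.09 (SE, adjusted p = 0.232), Lum 0.24 ± 0.27, Ogn −0.15 ± 0.08 and the hyaluronan synthase Has2 −0.01 ± 0.12. Of 14 genes of collagen processing and crosslinking none passed (median −0.02). The procollagen protease Bmp1 had 0.24 ± 0.07 (SE, adjusted p = 0.368) and the Lox relative Loxl1 0.10 ± 0.09, while Loxl2 had −0.18 ± 0.09 and the lysyl hydroxylase Plod2 −0.14 ± 0.06.

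Among 15 ligands, receptors and signalling genes of the TGF-beta pathway none passed in lung (median −0.03). The ligand Tgfb3 had 0.19 ± 0.10 (SE), Smad2 0.08 ± 0.07, the inhibitory Smad7 −0.18 ± 0.08 and the ligand Tgfb2 −0.15 ± 0.09. Of 10 integrin subunits that bind the matrix proteins of the set none passed (median −0.05), with Itga5 at 0.08, Itgb1 at 0.02, Itga4 at −0.14 and Itga8 at −0.14. Of 13 contractile genes none passed (median −0.02), with Lmod1 at 0.13, Tpm1 at 0.11, Tpm2 at −0.15 and Tagln at −0.21.

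**Figure D5:**
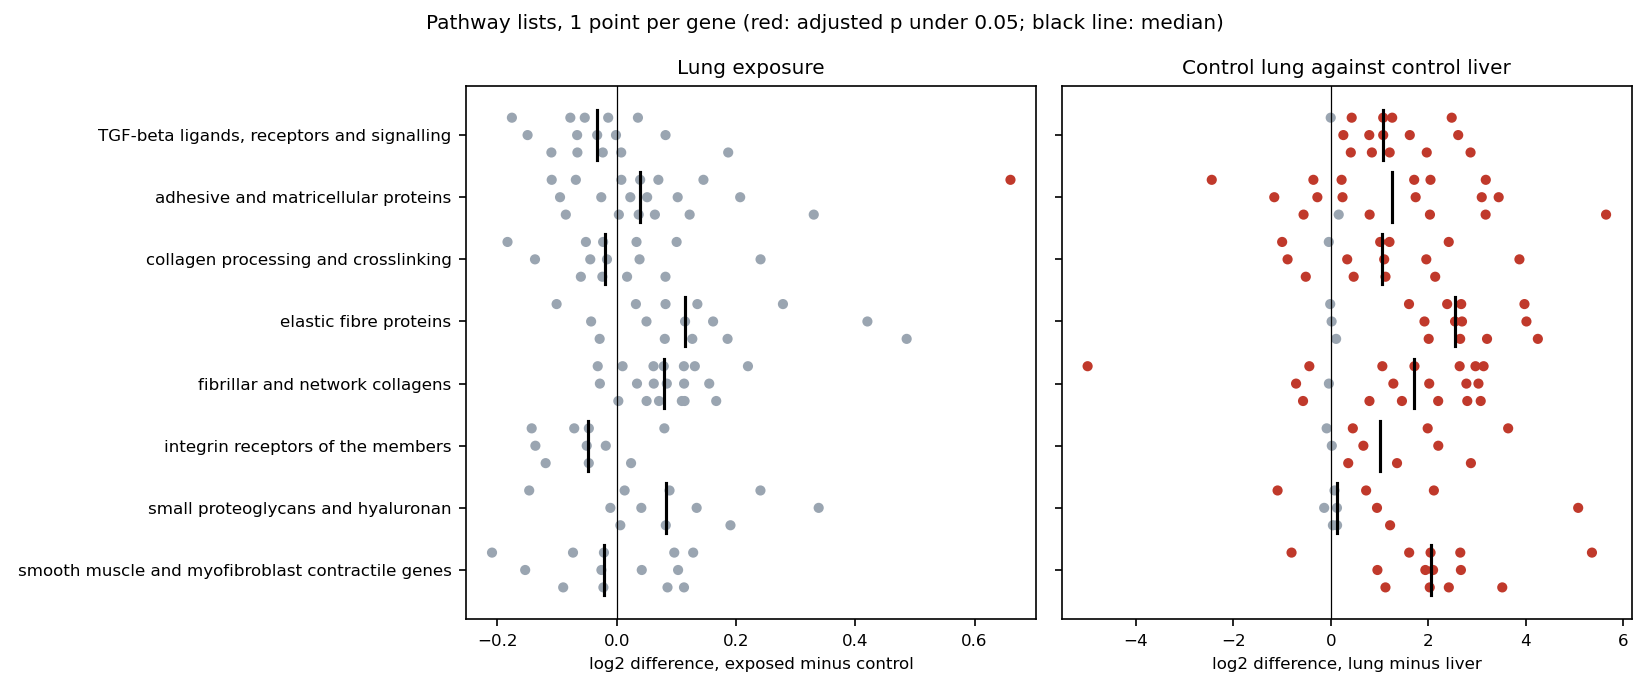
Log2 differences of the genes of the 8 lists (1 point per gene, y axis the list) for exposed minus control lung and for control lung minus control liver; red marks an adjusted p below 0.05 and the black line the median. Spp1 at 0.66 is the 1 red point in the lung panel, and in the tissue panel most points lie right of 0.

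Between control lung and liver 87 of 115 list genes were higher in lung (30% of all probes) and 14 were lower (29.6%). Their median difference was 1.36. Elastic fibre genes were highest as a list, with 12 of 15 higher, 0 lower and a median of 2.55, among them the microfibril proteins Mfap2 at 4.25 and Mfap4 at 3.97. Of 19 collagens 14 were higher and 4 lower. The fibrillar Col1a1 and Col3a1 were higher in lung by 3.13 and 3.07, whereas Col18a1 was 4.99 on the log2 scale in the other direction (−4.99 ± 0.08 SE). Of 13 contractile genes 12 were higher in lung and 1, Cald1, was lower (−0.81 ± 0.10 SE).

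The genes whose log2 ratios followed each member most closely over the 13 lung arrays were taken from 16256 probes that were well above background in Cy5 on all of them. Acta2 had the closest followers, Tagln (r = 0.959), Cnn1 (r = 0.954) and Lmod1 (r = 0.935), and with the group means removed these were 0.971, 0.954 and 0.973. For Spp1 they were Adora1 (r = 0.894), Itih4 (r = 0.868) and Phyhd1 (r = 0.864), which fell to 0.701, 0.530 and 0.592 with the group means removed. For the other genes they were Wdr46, Sod3 and Vars2 for Fn1 (0.927 to 0.887), Axud1, Tsc22d2 and Dnd1 for Ctgf over 12 arrays (0.917 to 0.870), Sirpb1, Ifrd2 and Ube2r2 for Tgfb1 (0.900 to 0.863), Adamts15, Csf2ra and Aqp8 for Eln (0.888 to 0.856), Myo1a, Pcdhb15 and Pofut1 for Lox (0.866 to 0.856), and 2010012O05Rik, Ap2b1 and Kctd1 for Tnc (0.828 to 0.797). These values are a description over arrays that share the reference RNA.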

How the data were processed

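Lung mRNA of 13 mice and liver mRNA of 15 mice was analysed, 1 array per mouse, grouped by the deposited labels. The authors deposited scanner output with unnormalized spot intensity and local background (Feature Extraction 9.5.3.1 for lung, 10.1.1.1 for liver) and a processed table of log2 ratios made by LOWESS, used as an alternative. The table correlated with the scanner log2 ratios at 0.993 to 0.997 per array, in the same direction, with column medians of −0.042 to −0.022. How its genes were centred is not given in the sources used here. The miRNA arrays were not used. No genome was used.

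Median intensities were corrected with normexp (offset 50) after spots with an outlier mark in either channel were left out (2.46% to 4.72% of spots per array), normalized within each array by loess, and spots of a probe were averaged. With all spots the fitted Cy5 background mean reached −972, and without marked spots it was −8.44 to −4.12. Groups were compared in R 4.3.3 with limma 3.58.1 (statmod 1.5.0) and Benjamini-Hochberg adjustment over all probes, threshold 0.05. Lung and liver were fitted separately, and the 2 tissue contrasts over all 28 arrays with 1 shared spread. Single probes also had an exact 2-sided permutation test. In simulated data with a log2 change of 1 in 200 of 41017 probes, 97.0% were called in lung and 97.5% in liver. Of the unchanged probes 13 were called in lung and 13 in liver. The simulated noise was independent between arrays, without slide effects. The change of 1 was larger than any exposure difference of the 8 genes (highest 0.66). These shares therefore do not tell how often differences of the sizes reported here would be called. The number of arrays limits the precision.

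Lung and liver with the same number come from the same mouse, so that mouse was a block in an alternative. The deviations of lung and liver of a mouse from their group means correlated at −0.099 to 0.298. Named were all member probes, in each list the genes that passed or otherwise the 2 highest and 2 lowest in lung, and the 3 closest followers of each member. The members and lists were chosen with earlier results of these data known.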

Additional observations from a re-analysis of the deposited data

How the results depend on the processing

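Between control lung and liver the 8 genes kept their direction under every alternative run and their call under all but the background model fitted on all spots, where Tnc (0.39, adjusted p = 0.250) and Lox (0.38, adjusted p = 0.480) did not pass. None of the 8 passed in liver or in the tissue difference of the exposure effect under any. The lung call of Spp1 was lost with the background model fitted on all spots (0.67, adjusted p = 0.623), without background correction (0.66, adjusted p = 0.064), with the scanner's processed signals (0.69, adjusted p = 0.096) and with median centring (0.76, adjusted p = 1.00). In each of these 4, and in the Cy3 channel alone, 0 genes of the set passed in lung. The 83 lung probes became 14 with the background model on all spots, 4 with median centring (all 4 higher, 100%, against 89.2%), 133 with slide as a random block and 3 in Cy3 alone. The 58 probes of the tissue difference became 6 with the background model on all spots (100% higher against 89.7%), 34 with the processed signals, 12 with median centring and 33 with the mouse as a replicate block, which tested fewer probes and mice, and where Spp1 (0.81, adjusted p = 0.80) and Fn1 (0.26, adjusted p = 0.91) did not pass; the block changed no other call of the set. The processed signals moved the median of all probes between the tissues to −0.109.

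Differences that did not pass, and Foxj1, changed sign. With the background model on all spots the lung values were 0.48 for Lox, 0.00458 for Tgfb1, −0.32 for Eln and −0.32 for Foxj1, and the liver value of Eln was 0.0521. With the processed signals they were 0.0482 for Lox and −0.10 for Eln in lung and 0.18 for Lox in liver. With median centring they were 0.15 for Ctgf, 0.0708 for Lox, 0.0723 for Tgfb1 and 0.095 for Acta2 in lung, and in liver 0.17 for Fn1, 0.0792 for Tnc, 0.11 for Lox, 0.14 for Spp1, 0.0669 for Tgfb1, 0.15 for Acta2 and 0.0186 for Eln. With 1 value per gene symbol they were −0.0816 for Tnc and 0.0441 for Acta2 in lung and 0.0292 for Fn1 and 0.0382 for Tnc in liver. The authors' table gave 0.0299 for Ctgf in lung. Slide as a fixed block gave 0.00929 for Lox in lung and 0.0354 for Tnc in liver, and as a random block 0.0147 for Tnc in liver. Cy5 alone gave 0.039 for Ctgf in lung and 0.0325 for Fn1, 0.0523 for Lox and 0.043 for Eln in liver. The cause was not tested.

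With 1 array left out at a time, 64 to 82 lung probes, 0 to 1 genes of the set in lung, 46 to 64 probes of the tissue difference and 23691 to 24544 probes between the tissues passed. Spp1 ran from 0.60 to 0.76, and the signs of Ctgf (−0.13 to 0.0769), Lox (−0.12 to 0.0414), Tgfb1 (−0.0413 to 0.0142) and Acta2 (−0.10 to 0.075) in lung and of Tnc (−0.0547 to 0.0705), Lox (−0.039 to 0.0179) and Eln (−0.029 to 0.0285) in liver turned. Without a change of sign, Fn1 ran from 0.15 to 0.30, Eln from 0.0652 to 0.21 and Tnc from 0.0186 to 0.0838 in lung. In liver Spp1 ran from −0.30 to −0.0159, Fn1 from −0.12 to −0.0138 and Tgfb1 from −0.0559 to −0.00274, also without a change of sign. Keeping spots marked for local background alone was chosen after seeing the data. Signal near background limits A_51_P324992 and A_52_P355169 of Tnc and A_52_P644232 of Acta2.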
